A study of Homo sapiens with 4 samples.

Results

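The human mitochondrial genome encodes cytochrome b, the core of cytochrome c oxidase, a pair of ATP synthase subunits and the RNAs of the mitochondrial ribosome. Of the 11597 genes in the authors' deposited table, 8 had a symbol that starts with MT- but with neither MT-ND nor MT-T, which leaves out complex I subunits and tRNAs. They were MT-CYB, MT-CO1, MT-CO2, MT-CO3, MT-ATP6, MT-ATP8, MT-RNR1 and MT-RNR2. The rule used symbols only, and each gene matched GENCODE release 29 by its Ensembl identifier.

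Transcripts were compared between MOLM13 cells that overexpressed BTG2 (genotype label BTG2 OE, 2 libraries) and MOLM13 cells given the empty vector (genotype label WT, 2 libraries). MOLM13 is an acute myeloid leukaemia cell line. Cells of both groups were infected with a lentiviral vector in which an EF1α promoter drives the insert together with puromycin resistance and ZsGreen, and were collected 3 days later. The labels mention neither selection nor sorting, so the share of infected cells is unknown. Poly(A) RNA was enriched before library preparation. The authors' deposited table gives 1 mean normalized count per gene over the libraries, 1 log2 fold change of BTG2 over empty vector and its standard error (SE). Single-library values were not analysed here, so the number of libraries that showed a direction and any overlap of the groups are unknown. A gene was called when the authors' adjusted p was under 0.05.

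The labels could be checked against the overexpressed gene and against cell type markers. In the authors' deposited table BTG2 had a log2 fold change of 5.01 (SE 0.09), in which the cDNA and the endogenous gene are not told apart. Of 10 markers of the myeloid lineage 8 were listed, with mean normalized counts from 71.6 to 6277 per the authors' deposited table, while CD34 and CD14 were not among the listed genes. Of these 8, MPO (-1.14) and LYZ (-0.39) fell and HOXA9 (0.53) and FLT3 (0.23) rose by the authors' deposited table. Their part in the changes of the mitochondrial transcripts was not tested. Of 13 markers of lymphoid, erythroid, epithelial, stromal, hepatic and endothelial cells 2 were listed, KRT18 at 421 and PECAM1 at 65.7 normalized counts per the authors' deposited table.

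Mitochondrial DNA is read from its heavy-strand promoter into long precursors that hold the rRNAs and nearly all mRNAs. Between many of these lie tRNAs, which are excised to free the transcripts beside them. No tRNA lies between MT-ATP6 and MT-CO3, which share a base. Most of the mRNAs then receive poly(A) tails from a polymerase inside the organelle, MTPAP, and are kept stable by the LRPPRC and SLIRP complex. For several of them the tail also supplies the end of the stop codon. BTG2 is an adaptor that brings the CCR4-NOT deadenylase to mRNA in the cytosol, and the series asks how it affects the stability of mRNA. Whether BTG2 acts on mitochondrial RNA was not tested.

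The 3′ ends of the 6 annotated reading frames are shown to compare their stop codons, and they need not be the ends of the mRNAs. The end of the MT-ATP8 frame lies within MT-ATP6, on the mRNA that both share, so no tail directly follows it. The 6 ends are written 5′ to 3′ from GENCODE release 29 transcripts on GRCh38 (hg38), plus strand. Capitals mark the stop codon, or the part of it that the genome encodes.
MT-CYB, chrM:15861-15887: ttgaaaacaaaatactcaaatgggccT
MT-CO3, chrM:9964-9990: atgtctccatctattgatgagggtctT
MT-CO2, chrM:8243-8269: gaaatagggcccgtatttaccctaTAG
MT-CO1, chrM:7419-7445: gaagaacccgtatacataaaatctAGA
MT-ATP6, chrM:9181-9207: agcctctacctgcacgacaacacaTAA
MT-ATP8, chrM:8546-8572: cttcattcattgcccccacaatccTAG
The reading frames of MT-CYB and MT-CO3 stop after a single T, which a poly(A) tail turns into TAA. As annotated, those of MT-CO1, MT-CO2, MT-ATP6 and MT-ATP8 end in a whole codon, which is AGA in MT-CO1.

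MT-ATP8 and MT-ATP6 lie on 1 shared mRNA, with reading frames that overlap by 46 bases. This stretch is shown because reads within it cannot be given to either gene. Reads that extend from it into both frames fit both genes too. Capitals mark the start codon of MT-ATP6 and the stop codon of MT-ATP8.
MT-ATP8 and MT-ATP6 overlap, chrM:8527-8572: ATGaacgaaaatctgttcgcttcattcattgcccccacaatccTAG
The overlap makes up 22.2% of the 207 bases annotated for MT-ATP8 and 6.75% of the 681 bases annotated for MT-ATP6. MT-ATP6 also shares 1 base with MT-CO3, the last A of its stop codon.

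Transcripts of cytochrome b, of the 3 mitochondrially encoded cytochrome oxidase subunits, of ATP synthase subunit 6 and of the large ribosomal RNA were higher in BTG2 cells. Of the 8 genes 6 rose and 0 fell per the authors' deposited table. Over all listed genes the authors' adjusted p called 3.64% higher and 4.47% lower. The median log2 fold change of the 8 genes was 0.75, with a range from 0.33 to 1.12, against a median of 0.00 over all listed genes, computed from the authors' deposited table. In bulk RNA, more mitochondrial RNA per cell and more cells rich in it cannot be told apart. Normalized counts are relative to the other RNA of a library. Whether the amount of mitochondrial RNA per cell rose at all was therefore not tested.

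**Figure D1:**
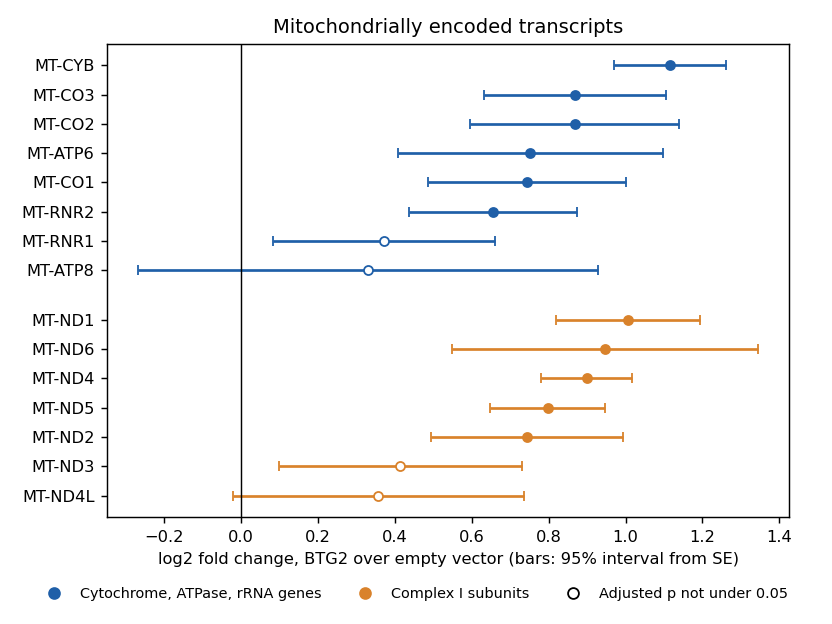
Log2 fold change of BTG2 over empty vector (x axis) for 15 mitochondrially encoded genes (y axis), with 95% intervals from the authors' SE. All 15 points lie above 0, MT-CYB is the highest at 1.12, and open circles mark the 4 genes whose adjusted p was not under 0.05.

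MT-CYB encodes cytochrome b, the only subunit of complex III, the cytochrome bc1 complex, that comes from mitochondrial DNA. It occupies positions 14747 to 15887 of the plus strand of chromosome M in hg38, the protein-coding gene farthest from the promoter. With a mean normalized count of 11828 it rose by 1.12 on the log2 scale (SE 0.07, adjusted p = 2.83e-47) per the authors' deposited table. That is a 2.17-fold difference with a 95% interval from 1.96 to 2.40, computed from the authors' SE. By the authors' p it ranked at 7 of 11597 genes.

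The mean and the fold change together imply a level in each group when both hold 2 libraries. For MT-CYB this implied level was 16187 normalized counts in BTG2 cells and 7469 in empty-vector cells. These implied levels carry no spread of their own, and they restate the fold change rather than add a measurement.

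MT-CO1, MT-CO2 and MT-CO3 encode the catalytic core of complex IV, cytochrome c oxidase. Subunits 1 and 2 carry its haem and copper centres, while subunit 3 holds no redox centre. MT-CO3 (positions 9207 to 9990) rose by 0.87 (SE 0.12, adjusted p = 9.19e-11) at a mean normalized count of 41112 per the authors' deposited table. Its implied level was 53128 normalized counts in BTG2 cells and 29096 in empty-vector cells. MT-CO2 (positions 7586 to 8269) rose by the same 0.87 (SE 0.14, adjusted p = 3.33e-08) at a mean of 33461 per the authors' deposited table. It stood at an implied 43235 normalized counts in BTG2 cells against 23687 in empty-vector cells.

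MT-CO1 (positions 5904 to 7445), the largest of these subunits, rose by 0.74 (SE 0.13, adjusted p = 8.89e-07) per the authors' deposited table. Its mean normalized count of 4663 was far below those of its partners, and its implied level was 5840 in BTG2 cells and 3487 in empty-vector cells. Summed over the 3 subunits, implied levels were 1.82 times as high in BTG2 cells as in empty-vector cells. The 3 log2 fold changes differed by at most 0.12, from MT-CO3 to MT-CO1, less than the combined SE of 0.18 for that pair.

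MT-ATP6 and MT-ATP8 encode subunits of complex V, the ATP synthase. ATP6 forms part of its proton channel and ATP8 is a small membrane protein of the stalk region. MT-ATP6 (positions 8527 to 9207) rose by 0.75 (SE 0.18, adjusted p = 0.000591) at a mean normalized count of 2127 per the authors' deposited table. Its implied level was 2669 normalized counts in BTG2 cells and 1584 in empty-vector cells. MT-ATP8 (positions 8366 to 8572) had a log2 fold change of 0.33 (SE 0.30, adjusted p = 0.691) at a mean of 133 per the authors' deposited table, and did not pass the test. The 95% interval of its log2 fold change, from -0.27 to 0.93, holds the value of MT-ATP6, with which it shares an mRNA. The difference of MT-ATP6 over MT-ATP8 was 0.42 on the log2 scale, with an interval from -0.27 to 1.11 from the combined SE.

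MT-RNR1 and MT-RNR2 are the RNAs of the small and large subunit of the mitochondrial ribosome. They are transcribed first from the promoter, and their tails are short compared with those of the mRNAs. MT-RNR2 (positions 1671 to 3229) rose by 0.66 (SE 0.11, adjusted p = 3.09e-07) per the authors' deposited table, where its mean normalized count of 44505 was the highest of any mitochondrial gene. Its implied level was 54442 in BTG2 cells and 34568 in empty-vector cells. MT-RNR1 (positions 648 to 1601) had a log2 fold change of 0.37 (SE 0.15, adjusted p = 0.109) at a mean of 15742 per the authors' deposited table. It missed the threshold, although its unadjusted 95% interval, from 0.08 to 0.66, lay above 0.

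**Figure D2:**
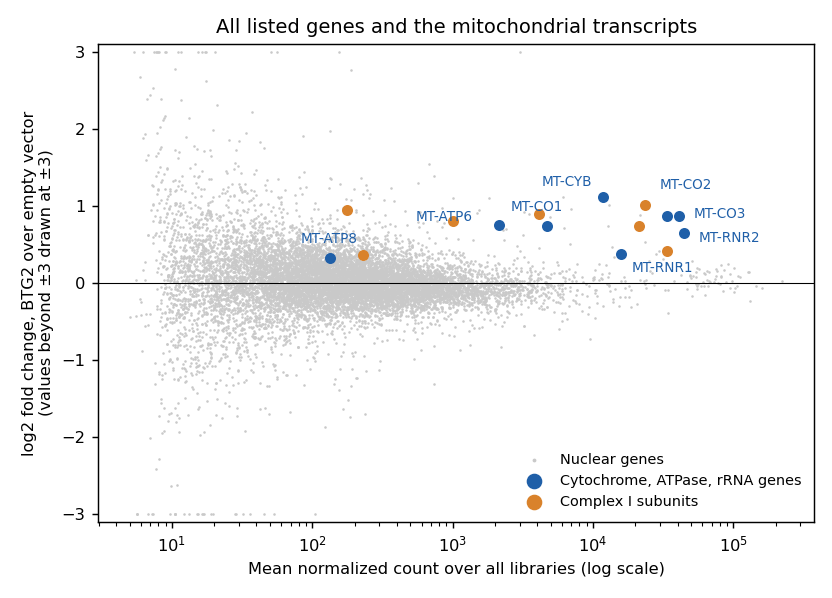
Log2 fold change of BTG2 over empty vector (y axis) against mean normalized count on a log scale (x axis) for the listed genes except mitochondrial tRNAs. Nuclear values outside the plotted range are drawn at its limits. Grey points are nuclear genes, blue points the 8 cytochrome, ATPase and ribosomal RNA genes, and orange points the complex I subunits. MT-CYB (1.12), MT-CO3 (0.87) and MT-CO2 (0.87) rank at 3, 15 and 16 by log2 fold change among the 1160 most abundant genes.

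Order and size were only partly resolved among the 8 genes. By log2 fold change the order was MT-CYB, MT-CO3, MT-CO2, MT-ATP6, MT-CO1, MT-RNR2, MT-RNR1 and MT-ATP8. In 0 of the 7 pairs of neighbours in this order did the 95% interval of the difference, from the combined SE, exclude 0. Over all 28 pairs the interval excluded 0 in 6. MT-CYB lay above MT-CO1 by 0.37 (interval 0.08 to 0.67), above MT-RNR2 by 0.46 (0.20 to 0.72), above MT-RNR1 by 0.74 (0.42 to 1.07) and above MT-ATP8 by 0.78 (0.17 to 1.40). MT-CO3 lay above MT-RNR1 by 0.50 (0.12 to 0.87), and so did MT-CO2 by 0.50 (0.10 to 0.89). The intervals treat the genes as independent and are not adjusted for the number of pairs, and the genes share their libraries, so they describe and do not test.

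Among the 8 genes MT-CYB alone also passed a stricter test. In a test of an absolute log2 fold change of 0.5, with Benjamini-Hochberg adjustment over all genes, 1 of the 8 genes passed, MT-CYB, against 0.328% of all listed genes that passed as higher. It was also the only one called with a log2 fold change of at least 1, as were 0.535% of all listed genes on the higher side.

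Of the 8 genes 7 lay in the top 10% of the table by mean normalized count, 1160 genes at or above 934, and MT-ATP8 did not. In that top 10% of genes, 11.3% of genes were called higher and 20.3% lower, with a median log2 fold change of -0.06 computed from the authors' deposited table. By log2 fold change within that top 10% MT-CYB ranked at 3, MT-CO3 at 15, MT-CO2 at 16, MT-ATP6 at 19, MT-CO1 at 21, MT-RNR2 at 26 and MT-RNR1 at 45. The SE of the 8 genes had a median of 0.13, against 0.06 in the top 10%, so their fold changes were less precise than those of most genes as abundant.

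The nearest nuclear genes in abundance and in fold change were ribosomal protein genes and their pseudogenes. The 3 nuclear genes nearest to MT-RNR2 in mean normalized count were the ribosomal protein genes RPL18 (42557), RPL14 (46886) and RPL17 (47075), with log2 fold changes of 0.11, 0.01 and -0.08 per the authors' deposited table. Only RPL18 passed the test. The 3 called nuclear genes in the top 10% with a log2 fold change nearest to that of MT-CYB were the ribosomal protein pseudogenes RPL13P12 (1.12), RPL32P18 (1.11) and RPS15AP1 (1.10) per the authors' deposited table. Whether reads of their parent genes were counted under these pseudogenes was not tested.

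Levels differed more between the genes than between the groups. Per kilobase of transcript, mean normalized counts were 52439 for MT-CO3, 48920 for MT-CO2, 28547 for MT-RNR2, 16501 for MT-RNR1 and 10366 for MT-CYB. MT-ATP6 followed at 3123 and MT-CO1 at 3024, and MT-ATP8 was lowest at 642 normalized counts per kilobase. MT-ATP8 and MT-ATP6 share an mRNA, so the gap between them need not be a gap in RNA level. The effect of reads that fit both genes was not tested. MT-ATP6 and MT-CO3 are adjacent on the precursor, yet their levels per kilobase stood far apart. Dividing by length assumes that reads sample a transcript along its length. The labels describe both a short-fragment kit and long reads, so whether this holds was not tested. By raw mean normalized count MT-RNR2 came first and MT-CO3 next, and MT-ATP8 was again the lowest.

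**Figure D3:**
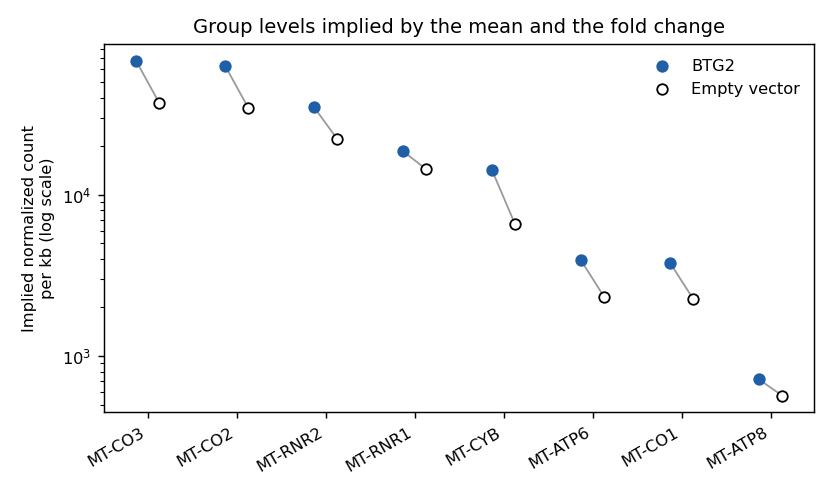
Normalized counts per kilobase implied by the authors' mean and fold change (y axis, log scale) for the 8 genes (x axis, ordered by mean level), with BTG2 as filled and empty vector as open circles. Each BTG2 point lies above its empty-vector point, and the genes range from 52439 for MT-CO3 to 642 for MT-ATP8 in mean level. The points have no error bars because single-library values were not analysed here.

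The 8 genes made up 1.49% of the summed mean normalized counts of all listed genes, or 2.49% when counts were divided by transcript length. By implied levels, not divided by length, their share was 1.85% in BTG2 cells and 1.11% in empty-vector cells. The 6 protein-coding genes held 1.16% in BTG2 cells and 0.640% in empty-vector cells, a log2 ratio of implied levels of 0.89. The 2 rRNAs held 0.692% in BTG2 cells and 0.472% in empty-vector cells, a log2 ratio of 0.58. With all 19 listed mitochondrially encoded genes the share was 2.84% in BTG2 cells and 1.74% in empty-vector cells. These shares hold for listed genes after poly(A) enrichment and say nothing of RNA without a tail.

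The complex I subunits, encoded by the same molecule, had fold changes in the same range. Of these 7 genes 5 rose and 0 fell per the authors' deposited table, against 3.64% higher and 4.47% lower over all listed genes. The median log2 fold change was 0.75 for the cytochrome, ATPase and ribosomal RNA genes and 0.80 for complex I. MT-ND1 had a log2 fold change of 1.01 (SE 0.10), MT-ND4 one of 0.90 (SE 0.06), MT-ND5 one of 0.80 (SE 0.08) and MT-ND2 one of 0.75 (SE 0.13) per the authors' deposited table. MT-ND6, the only mRNA read from the opposite strand, rose by 0.95 (SE 0.20, adjusted p = 0.000116) per the authors' deposited table. MT-ND3 (0.41) and MT-ND4L (0.36) did not pass the test per the authors' deposited table. The MT-ND4L frame ends at position 10766, within MT-ND4, which starts at 10760. Even so, the interval of MT-ND4L from the authors' SE, -0.02 to 0.74, lay below that of MT-ND4, 0.78 to 1.02. Whether the value of a short frame that overlaps another, such as MT-ND4L or MT-ATP8, follows the level of its RNA was not tested. The difference between the sets was not tested.

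Of the 22 tRNA genes annotated on chromosome M, 4 were listed, and 0 passed the test per the authors' deposited table, with MT-TQ alone under an unadjusted p of 0.05. MT-TQ (0.72) and MT-TS1 (0.74) had positive and MT-TS2 (-0.27) and MT-TF (-0.29) negative log2 fold changes per the authors' deposited table, at mean normalized counts from 17.9 to 74.4. MT-TF lies directly upstream of MT-RNR1 on the precursor.

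**Figure D4:**
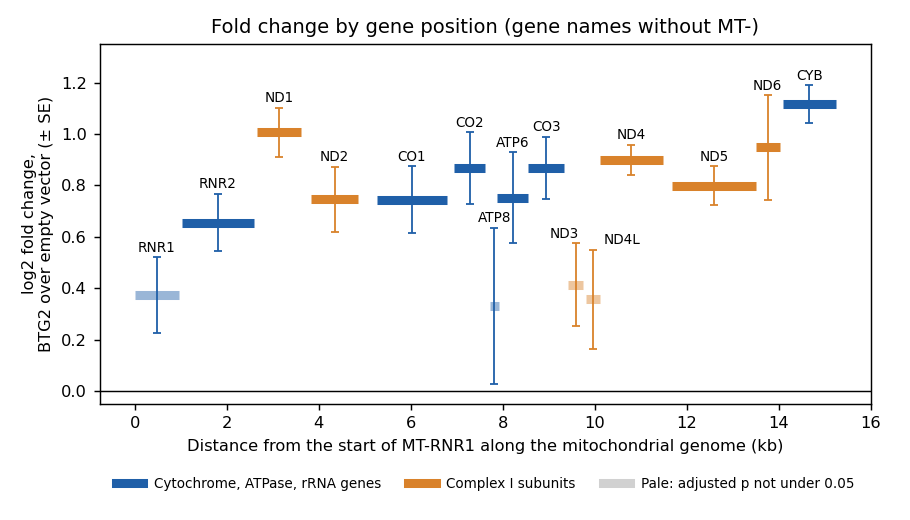
Log2 fold change of BTG2 over empty vector ± SE (y axis) for each mRNA and rRNA gene drawn at its place along the mitochondrial genome, as distance from the start of MT-RNR1 in kilobases (x axis). Pale bars did not pass the test. MT-RNR1, at distance 0, stands at 0.37 and MT-CYB, the farthest gene, at 1.12, with the values between them in no steady order.

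Position on the genome, length, base composition and the form of the stop codon were set beside the fold changes. Over the 14 mRNA and rRNA genes of the plus strand, log2 fold change and distance from the start of MT-RNR1 were compared. Pearson r was 0.26 and Spearman rho 0.31. Over all 15 mRNA and rRNA genes the values were 0.43 and 0.35 for annotated length and 0.64 and 0.57 for GC content. For the log2 mean normalized count they were 0.26 and 0.13. These are descriptions across genes that share libraries and precursors. The 3 shortest reading frames, MT-ATP8, MT-ND4L and MT-ND3, of 207, 297 and 346 bases, were the 3 that did not pass the test. They also had the lowest fold changes of the reading frames. MT-ATP8 shares an mRNA with MT-ATP6, and the MT-ND4L frame overlaps MT-ND4, so frame lengths need not be mRNA lengths. In the 6 reading frames whose annotated stop codon is incomplete, among them MT-CYB and MT-CO3, the median log2 fold change was 0.88, from 0.41 to 1.12. In the 7 whose annotated stop codon is complete it was 0.75, from 0.33 to 0.95, so the ranges overlapped. MT-ATP6 is among these 7, although the last A of its stop codon is shared with MT-CO3. Whether its mRNA keeps that base was not tested.

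Few nuclear-encoded subunits of the same complexes were called. Of 40 nuclear subunits of complexes III, IV and V 0 rose and 1 fell per the authors' deposited table, with a median log2 fold change of 0.00. That is 2.5% called, against 8.11% of all listed genes, and the difference in shares was not tested. At an unadjusted p under 0.05 the authors' test gave 4 higher and 7 lower. After recentring on the median gene at or above the median mean count, 2 rose, UQCRB of complex III and ATP5MG of complex V, and 1 fell. Among the 9 partners of cytochrome b in complex III 0 were called by the authors' adjusted p, against 1 higher and 2 lower unadjusted. The median was -0.06 and the range ran from -0.12 to 0.17. CYC1, the cytochrome c1 that takes electrons on toward cytochrome c, had a log2 fold change of -0.06 (SE 0.05, adjusted p = 0.594) per the authors' deposited table. Its 95% interval, from -0.16 to 0.03, lies below that of MT-CYB.

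Among 12 listed nuclear subunits of complex IV 0 were called by the authors' adjusted p, against 0 higher and 3 lower unadjusted, with a median of -0.01 and a range from -0.17 to 0.12. Of 19 nuclear subunits and regulators of complex V, ATP5F1B, the catalytic beta subunit, fell by 0.21 (SE 0.03, adjusted p = 1.85e-09) per the authors' deposited table, and 0 rose. The median of that list was 0.02, and ATP5F1A, the alpha subunit, had its highest value, 0.73 (SE 0.27, adjusted p = 0.0705), per the authors' deposited table. ATP5F1A had a mean normalized count of 70.5, against 13986 for ATP5F1B. Why its count was so low was not tested.

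Of the factors that assemble these complexes, COX20 rose. This chaperone of the newly made MT-CO2 protein had a log2 fold change of 0.55 (SE 0.17, adjusted p = 0.0172) per the authors' deposited table. It was called alone among 25 complex IV assembly factors, where 8.11% of all listed genes were called. After the same recentring PET100, another of these factors, was called higher too. For complex III 0 of 6 and for complex V 0 of 5 assembly factors were called by the authors' adjusted p, with medians of 0.18 and 0.31. Unadjusted, the counts were 1 higher and 0 lower for complex III, and 0 for complex V.

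The proteins that surround MT-RNR1 and MT-RNR2 in the mitochondrial ribosome were called in 7 of 79 cases, or 8.86%, near the 8.11% of all listed genes. Of 49 proteins of the large subunit 3 rose and 2 fell, with a median of -0.04. MRPL48 (0.50), MRPL10 (0.48) and MRPL28 (0.44) rose, and MRPL44 (-0.35) and MRPL16 (-0.32) fell, per the authors' deposited table. Of 30 proteins of the small subunit 2 rose and 0 fell, with a median of -0.01. These were MRPS5 (0.72, SE 0.19, adjusted p = 0.00420) and MRPS27 (0.42, SE 0.08, adjusted p = 5.78e-06) per the authors' deposited table.

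Of 17 genes that make and copy mitochondrial RNA and DNA 1 rose and 0 fell, or 5.88% called against 8.11% of all listed genes, with a median of -0.04. TOP1MT, the mitochondrial DNA topoisomerase, rose by 0.28 (SE 0.08, adjusted p = 0.00519) per the authors' deposited table. The RNA polymerase POLRMT stood at -0.01 (SE 0.11), the packaging and initiation factor TFAM at -0.26 (SE 0.10, adjusted p = 0.105), the initiation factor TFB2M at -0.15 (SE 0.11) and the elongation factor TEFM at -0.05 (SE 0.22) per the authors' deposited table.

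In a list of 54 genes that process, modify, translate or degrade mitochondrial RNA 4 rose and 0 fell, or 7.41% called, with a median of 0.00. ELAC2, which cuts tRNAs free from the precursor at their 3′ end, rose by 0.51 (SE 0.14, adjusted p = 0.00370) per the authors' deposited table. The ribosome recycling factor MRRF (0.68), the pseudouridine synthase RPUSD4 (0.57) and the elongation factor TUFM (0.33) rose too per the authors' deposited table. The stabilising pair LRPPRC and SLIRP stood at -0.08 (SE 0.06) and -0.11 (SE 0.06), and the poly(A) polymerase MTPAP at -0.16 (SE 0.19), per the authors' deposited table. The degradosome genes PNPT1 (-0.17) and SUPV3L1 (-0.04) and the MT-CO1 translation activator TACO1 (-0.13) did not pass the test per the authors' deposited table.

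Markers of mitochondrial content and its regulators were called in 3 of 28 cases, or 10.7%, near the 8.11% of all listed genes. Of 20 genes for import, carrier and matrix proteins 2 rose and 0 fell, TIMM50 (0.43) and SLC25A6 (0.12) per the authors' deposited table, with a median of -0.03. Of 8 listed regulators of mitochondrial biogenesis MYC fell by 0.13 (SE 0.05, adjusted p = 0.0441) per the authors' deposited table, and 0 rose. Recentring on the median gene at or above the median mean count ended the call of MYC and called PPRC1, a coactivator of mitochondrial biogenesis, higher. Over all lists of nuclear genes together 20 of 266 genes were called, or 7.52%, against 8.11% of all listed genes. These lists include 6 RNAs without a poly(A) tail, 2 nuclear-retained RNAs and 4 nuclear copies of mitochondrial genes. SNORD3A, RN7SL1 and NEAT1, which are not mitochondrial partners, are among the 20 called.

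**Figure D5:**
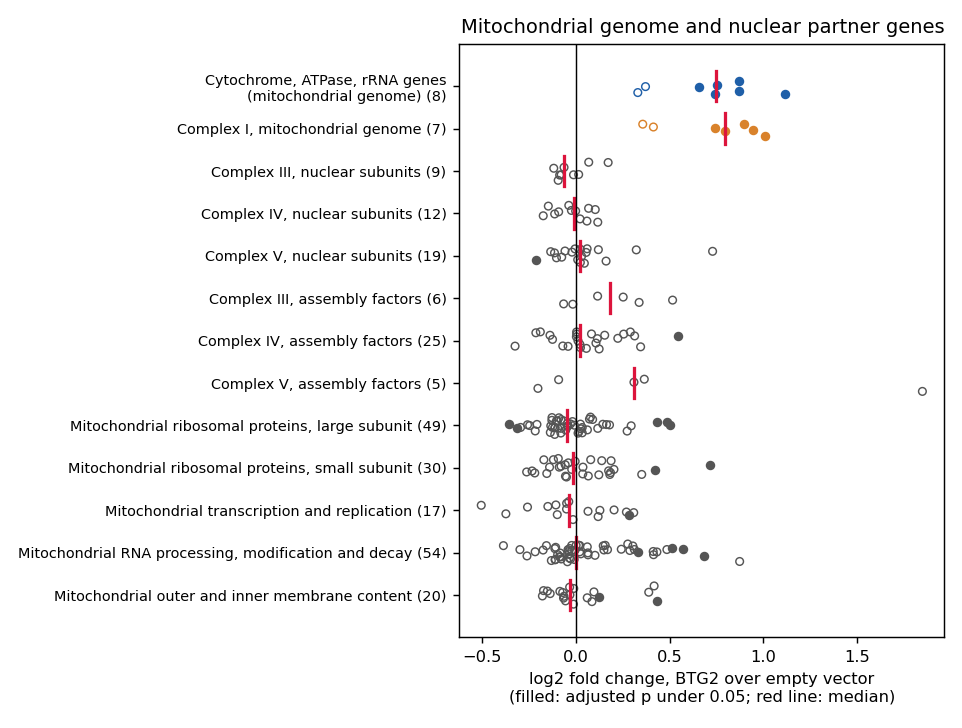
Log2 fold change of BTG2 over empty vector (x axis) for the genes of each list (y axis, number of listed genes in brackets), with filled circles for an adjusted p under 0.05 and a red line at the median. The medians of the 2 mitochondrially encoded sets are 0.75 and 0.80, and the median of the 40 nuclear subunits of complexes III, IV and V is 0.00.

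Several of the 8 genes have near-identical copies in the nuclear genome, and their values are uncertain to that extent. By symbol, GENCODE release 29 names 192 nuclear copies of any likeness for 7 of the 8 genes. Identity of the aligned part went down to 65.1%, in MTATP6P30. Of the 192 copies 4 aligned over at least 90% of the gene at 95% identity or more. All 4 lie side by side on chromosome 1 and match MT-CO1, MT-CO2, MT-ATP8 and MT-ATP6 at 98.7%, 98.2%, 97.6% and 98.5%. Another copy there, MTCO3P12, matches 69.8% of MT-CO3 at 98.2%. Of the 192 copies 2 were listed. MTCO1P12 (positions 631074 to 632616 of chromosome 1, hg38) had a mean normalized count of 77.4, or 1.66% of that of MT-CO1, and a log2 fold change of 0.37 (SE 0.27) per the authors' deposited table. MTATP6P1 (633696 to 634376) had a mean of 9.02, or 0.424% of that of MT-ATP6, with a log2 fold change of 0.68 (SE 0.86) per the authors' deposited table. How reads that fit several places were assigned is not given in the sources at hand.

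RNAs whose recovery does not follow from a poly(A) tail were checked beside the rise, since MT-RNR1 and MT-RNR2 carry only short tails. Of 17 RNAs without a poly(A) tail 6 were listed, of which 2 rose and 0 fell, with a summed mean normalized count of 352. Over all listed genes 3.64% were called higher and 4.47% lower. SNORD3A, the U3 small nucleolar RNA, rose by 2.76 (SE 0.21) on the log2 scale and RN7SL1, of the signal recognition particle, by 0.68 (SE 0.24, adjusted p = 0.0479) per the authors' deposited table. RN7SL2 (0.16), RPPH1 (0.20), RNU1-1 (-0.17) and RMRP (-0.80) did not pass the test per the authors' deposited table. Among nuclear-retained RNAs NEAT1 rose by 0.98 (SE 0.18, adjusted p = 5.38e-06), while MALAT1 stood at -0.15 with an SE of 2.77 per the authors' deposited table. Their part in the rise of the mitochondrial transcripts was not tested.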

How the data were processed

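Poly(A) RNA of 4 MOLM13 libraries, 2 with BTG2 and 2 with empty vector, was compared. Groups came from the sample titles. Per the submitters' processing notes, minimap2 and hg38 were used, with no version or role. The authors deposited 1 table of 11597 genes. Its mean column, a signal never below 0, is the normalized count averaged by the authors over libraries, and its fold changes and SE are on the log2 scale, per the file headers. The deposited test statistic is a score equal to fold change over SE within 2.72e-07. The deposited p-value is its two-sided normal tail, and the deposited adjusted p matches a Benjamini-Hochberg adjustment within 4.97e-08. The program, scaling, filter, strand setting and annotation of that table are not given in the sources at hand. Depth per library is unknown, and counting error could not be computed. The labels do not say whether replicates were separate cultures, so p-values may measure technical spread alone.

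With only a table of comparisons, the planned rule applied: a gene was called where the authors' adjusted p was under 0.05, and no test was added. The genes and the gene lists were chosen with earlier results of these data known, and no list was tested. Named genes are BTG2, the 8 genes, other mitochondrially encoded genes, up to 6 called genes per list, 11 core factors fixed by name and 3 nearest genes by abundance or fold change. Intervals are the 95% normal intervals of the authors' SE. Group levels were implied from mean and fold change. Lengths and sequences came from GENCODE release 29 on GRCh38, and 11398 genes had a length there. Nuclear copies were aligned locally with Biopython 1.88. Calling steps were tested on simulated data. Alternatives were stricter and looser limits, minimum changes, a filter on low means, recentring and an empirical null. Python 3.11.15, numpy 2.4.6, pandas 2.3.3 and scipy 1.17.1 were used.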

Additional observations from a re-analysis of the deposited data

How the results depend on the processing

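The count of 6 genes called higher did not change with an adjusted p limit of 0.01 or 0.1, with the less abundant genes below the median mean count left out, with recentring on the median abundant gene or with an empirical null, and the same 6 genes passed in each. It fell to 1, MT-CYB, when a log2 fold change of at least 1 was required as well, and to 1, again MT-CYB, when tested against an absolute log2 fold change of 0.5. The median log2 fold change of the 8 genes was 0.75. It ranged from 0.72 relative to the summed level of all listed genes to 0.77 after recentring on the median abundant gene. Over the 6 protein-coding genes alone it was 0.81. All 5 scalings moved values by at most 0.03 on the log2 scale. Under them each of the 8 genes kept its direction and its side of the threshold. These scalings used only the listed genes, so they cannot show a change in RNA per cell. The share of the 8 genes in the summed mean count was 1.49% and became 2.49% per transcript length. All nuclear lists together, with those of RNAs outside mitochondria included, held 20 called genes, 27 at a limit of 0.1 and 23 after recentring. No paired analysis was possible because values per library were not analysed here, and for the same reason no library was left out in turn. Depth is unknown, so how far it limits MT-ATP8, the gene with the lowest mean count of the 8, is unknown too. How far reads that also fit MT-ATP6 affect that count is unknown as well.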
